A study of Mus musculus with 8 samples.

Results

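The genes described here are those whose FPKM values, in colon epithelial cells of 4 mouse genotypes, fell into separate ranges for the B3galt5D116A and B3gnt7-/- libraries on one side and the wild-type and St6galnac6-/- libraries on the other. RNA from untreated C57BL/6J mice was sequenced in 8 libraries, 1 male and 1 female for each genotype, so that each side held 4 libraries. FPKM is the number of sequenced fragments per kilobase of a transcript, adjusted for how many fragments a library mapped. Where 2 values stand before a genotype, the male library comes first. B3galt5D116A carries a substitution in the galactosyltransferase B3galt5, B3gnt7-/- lacks function of the N-acetylglucosaminyltransferase B3gnt7, and St6galnac6-/- lacks function of the sialyltransferase St6galnac6. The labels give no age, batch or date, and do not say how the lines were made, whether they are 1 clone each, or whether a library came from 1 mouse or a pool. A batch or a breeding history that followed the lines cannot be told apart from genotype. The tables list 24346 gene symbols, of which 11537 averaged 1 FPKM or more across all libraries and are called tested. Among these, 368 had every B3galt5D116A and B3gnt7-/- library (called the B3 libraries here) above or below the whole range of the other 4. Those 368 genes are called separated. They were chosen by the FPKM values of this same contrast, so the difference between the sides is given as a description of the chosen genes, with no test.

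Glycans of the colonic epithelium and its mucus are built step by step by enzymes of the Golgi. B3galt5 adds galactose in a beta-1,3 link to chains that end in N-acetylglucosamine, B3gnt7 adds N-acetylglucosamine in a beta-1,3 link and so extends poly-N-acetyllactosamine chains, and St6galnac6 adds sialic acid in an alpha-2,6 link. B3galt5 and B3gnt7 lie on different chromosomes and act on different acceptors, so their lines share no targeted gene. Across all tested genes the libraries did not group by side. The correlation of log2(FPKM + 1) between libraries of different genotypes was 0.971 to 0.988 (median 0.979) within a side. Between the sides it was 0.975 to 0.987 (median 0.981).

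The targeted genes were themselves not separated. B3gnt7 transcript was lowest in the B3gnt7-/- libraries, at 68.8 FPKM in the male and 142 FPKM in the female, with the other 6 libraries at 154 to 266 FPKM. St6galnac6 transcript was lowest in St6galnac6-/-, at 218 and 232 FPKM, with the other libraries at 343 to 495 FPKM. B3galt5 carries a substitution, so its level, 93.1 to 162 FPKM over all libraries, does not check the label. The epithelial adhesion molecule Epcam was at 864 to 953 FPKM in all libraries, and the B cell receptor chain Cd79a at 0 to 0.174 FPKM. FPKM sums were 550288 to 612878 in the other 4 libraries and 518482 to 639537 in the B3 libraries. Read counts were not given, and a relative depth estimated from the lowest values was 1 to 1.36 in the other 4 and 1.18 to 1.45 in the B3 libraries, with the wild-type male at 1. That estimate is the most common ratio of low values to the wild-type male. Outside the wild-type male, 27.7% to 33.9% of a library's ratios lay within 0.01 log2 of it. Collagen and other stromal, endothelial and muscle markers summed to 53.6 FPKM in the B3gnt7-/- female against 14.4 to 19.0 FPKM in the other 7 libraries.

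The separated genes made up 3.19% of the tested genes. A split of 8 libraries into 4 and 4 leaves some genes separated even without a difference between genotypes. How large that part is here was not tested, so the share alone does not show a difference between the lines. In the B3 libraries 141 were higher (1.22%) and 227 lower (1.97%). That balance depended on scaling, since with the median of each library set equal 193 were higher and 167 lower, and 165 of the 227 lower genes and all 141 higher genes remained. Most gaps between the nearest libraries of the sides were small. On the log2(FPKM + 1) scale the median gap was 0.04, and the median absolute difference of the side means was 0.24, beside 0.09 over all tested genes. A gap of at least 0.2 was found in 26 genes and one of at least 0.5 in 5 genes (0.0433% of tested genes). These 5 genes were Klk1b22, Psca, Chst8 and Zfp939, all lower in the B3 libraries, and Pop4, which was higher. All 26 genes with a gap of at least 0.2 stayed separated with quantile normalization and with equal medians. Without the B3gnt7-/- female library, which leaves 3 values against 4, 685 were higher and 913 lower.

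**Figure D1:**
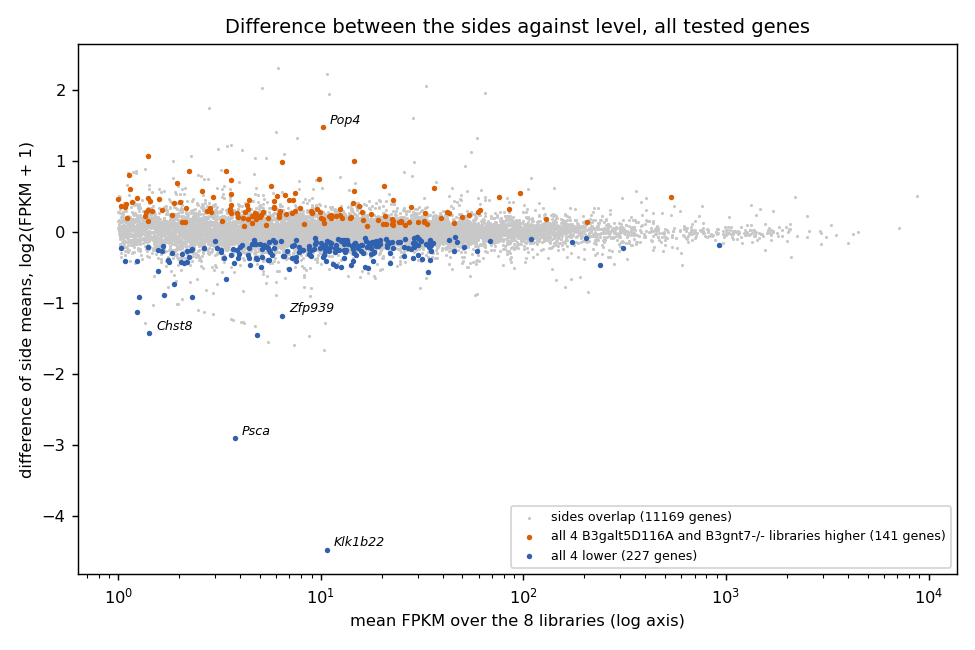
Difference of the side means on the log2(FPKM + 1) scale (B3galt5D116A and B3gnt7-/- minus wild-type and St6galnac6-/-) against the mean FPKM over the 8 libraries on a log axis, 1 point per tested gene. The 141 higher and 227 lower separated genes lie within the range of the 11169 grey genes whose sides overlap, -1.66 to 2.31, except Klk1b22 and Psca, which lie below it. The 5 genes with a gap of at least 0.5 are named.

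Of the 5 genes with a gap of at least 0.5, 4 lie on chromosome 7. The bases before their RefSeq starts (build GRCm38.p6, the assembly called mm10) are printed here because these genes have the widest gaps of those in the RefSeq promoter table, which does not list Psca, with the cytosine-guanine steps (CpG) in capitals. Each stretch holds 250 bases, read 5′ to 3′ on the strand of its gene. Klk1b22 is chr7:44112423-44112672 (plus strand), Chst8 chr7:34812712-34812961 (minus), Pop4 chr7:38271349-38271598 (minus) and Zfp939 chr7:39449261-39449510 (plus).
Klk1b22: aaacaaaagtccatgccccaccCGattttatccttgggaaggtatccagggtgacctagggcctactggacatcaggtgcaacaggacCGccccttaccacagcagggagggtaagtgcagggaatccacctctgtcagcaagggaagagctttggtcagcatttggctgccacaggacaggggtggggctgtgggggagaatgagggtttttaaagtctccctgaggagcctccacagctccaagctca
Chst8: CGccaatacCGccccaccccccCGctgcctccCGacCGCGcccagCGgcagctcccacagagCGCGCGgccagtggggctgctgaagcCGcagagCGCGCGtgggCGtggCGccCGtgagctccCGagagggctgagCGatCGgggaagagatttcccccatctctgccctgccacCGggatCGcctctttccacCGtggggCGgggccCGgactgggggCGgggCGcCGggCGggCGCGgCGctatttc
Pop4: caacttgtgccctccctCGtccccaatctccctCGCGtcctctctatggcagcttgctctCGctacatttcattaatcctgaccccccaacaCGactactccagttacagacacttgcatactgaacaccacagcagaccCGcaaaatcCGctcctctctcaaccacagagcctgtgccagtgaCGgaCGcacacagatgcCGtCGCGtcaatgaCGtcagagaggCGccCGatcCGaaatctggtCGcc
Zfp939: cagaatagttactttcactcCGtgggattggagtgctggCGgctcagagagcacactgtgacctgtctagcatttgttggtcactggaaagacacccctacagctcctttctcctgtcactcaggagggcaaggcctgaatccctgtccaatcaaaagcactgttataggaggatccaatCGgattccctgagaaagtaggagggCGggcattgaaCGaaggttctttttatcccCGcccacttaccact
These stretches differ in base composition, with 2 CpG steps for Klk1b22, 6 for Zfp939, 17 for Pop4 and 32 for Chst8, beside a median of 16 over the 8810 tested genes in the RefSeq promoter table. The motif TATAAA was in 0 of the 4 on either strand. Of the 368 separated genes, 277 were in that table, also with a median of 16, and TATAAA was in 22 of them (7.94%), beside 6.41% of the tested genes' stretches and 12.97% of all 27025 stretches in the table. By direction, TATAAA was in 13 of 106 higher genes (12.3%) and 9 of 171 lower genes (5.26%), and the median CpG counts were 13 and 18. These shares were not tested.

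Klk1b22, a serine protease of the mouse tissue kallikrein family, showed the widest gap. It was at 21.3 and 25.3 FPKM in the wild-type male and female and at 22.3 and 16.8 FPKM in the St6galnac6-/- male and female, and all 4 B3 libraries listed it at 0. No B3 library came near the other side, and no fold is given against a listed 0, which can be a failed estimate. Klk1b22 spans 44112673 to 44116922 on the plus strand of chromosome 7 (mm10) and has close paralogs, so reads of one may have been assigned to another. Klk1 itself, the most abundant family member, was at 2047 to 2660 FPKM in the other 4 libraries and at 1595 to 2097 FPKM in the B3 libraries, which overlap. Klk1b4 and Klk1b5 also overlapped, with Klk1b5 at 2.08 to 3.76 FPKM against 0.995 to 2.66 FPKM in the B3 libraries. Of the 4 tested kallikreins of this family only Klk1b22 was separated.

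Psca, a small surface protein of the Ly6 family held by a lipid anchor, was at 10.1 and 7.20 FPKM (wild-type), 5.97 and 6.27 (St6galnac6-/-), 0.326 and 0 (B3galt5D116A) and 0.112 and 0 (B3gnt7-/-). The lowest of the other 4 libraries was therefore far above the highest B3 library. Psca lies on chromosome 15 from 74714839 to 74717069. In a bulk sample, fewer cells that express a gene and less RNA per cell cannot be told apart, here or for the genes that follow.

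Chst8, a sulfotransferase that puts sulfate on terminal N-acetylgalactosamine, was at 2.87 and 3.04 FPKM (wild-type) and at 2.63 and 1.59 FPKM (St6galnac6-/-). The B3 libraries held 0.259 and 0.336 FPKM (B3galt5D116A) and 0.268 and 0.320 FPKM (B3gnt7-/-), a mean of 0.296 ± 0.0379 (SD, n = 4) against 2.53 ± 0.649 (n = 4). All of these levels are low, and the 4 B3 libraries varied little among themselves. Of 9 tested sulfotransferases and sulfate donors of glycan synthesis, Chst8 was the separated one, and the median log2 difference of the list was 0.01.

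Zfp939, a zinc finger gene by name that GENCODE M21 annotates as a transcribed unprocessed pseudogene, was at 8.01 and 9.38 FPKM (wild-type) and at 10.3 and 9.53 FPKM (St6galnac6-/-). It was at 3.72 and 3.04 FPKM (B3galt5D116A) and at 4.22 and 3.26 FPKM (B3gnt7-/-), and the log2 difference of the sides was -1.18. Of 287 tested zinc finger genes, 4 were higher and 1 lower, and their median log2 difference was 0.04.

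Pop4 encodes a protein subunit of the ribonucleases P and MRP, which process transfer and ribosomal RNA precursors. It was at 6.63 and 3.68 FPKM (wild-type), 5.04 and 4.58 (St6galnac6-/-), 15.8 and 18.6 (B3galt5D116A) and 15.2 and 12.4 (B3gnt7-/-). Its mean was 15.5 ± 2.53 FPKM (SD, n = 4) in the B3 libraries and 4.98 ± 1.23 FPKM in the others, a log2 difference of 1.47. Every B3 library was above every other library, in both sexes. An annotated antisense transcript overlaps Pop4, and whether the authors' counting used strand is not given in the sources used here.

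**Figure D2:**
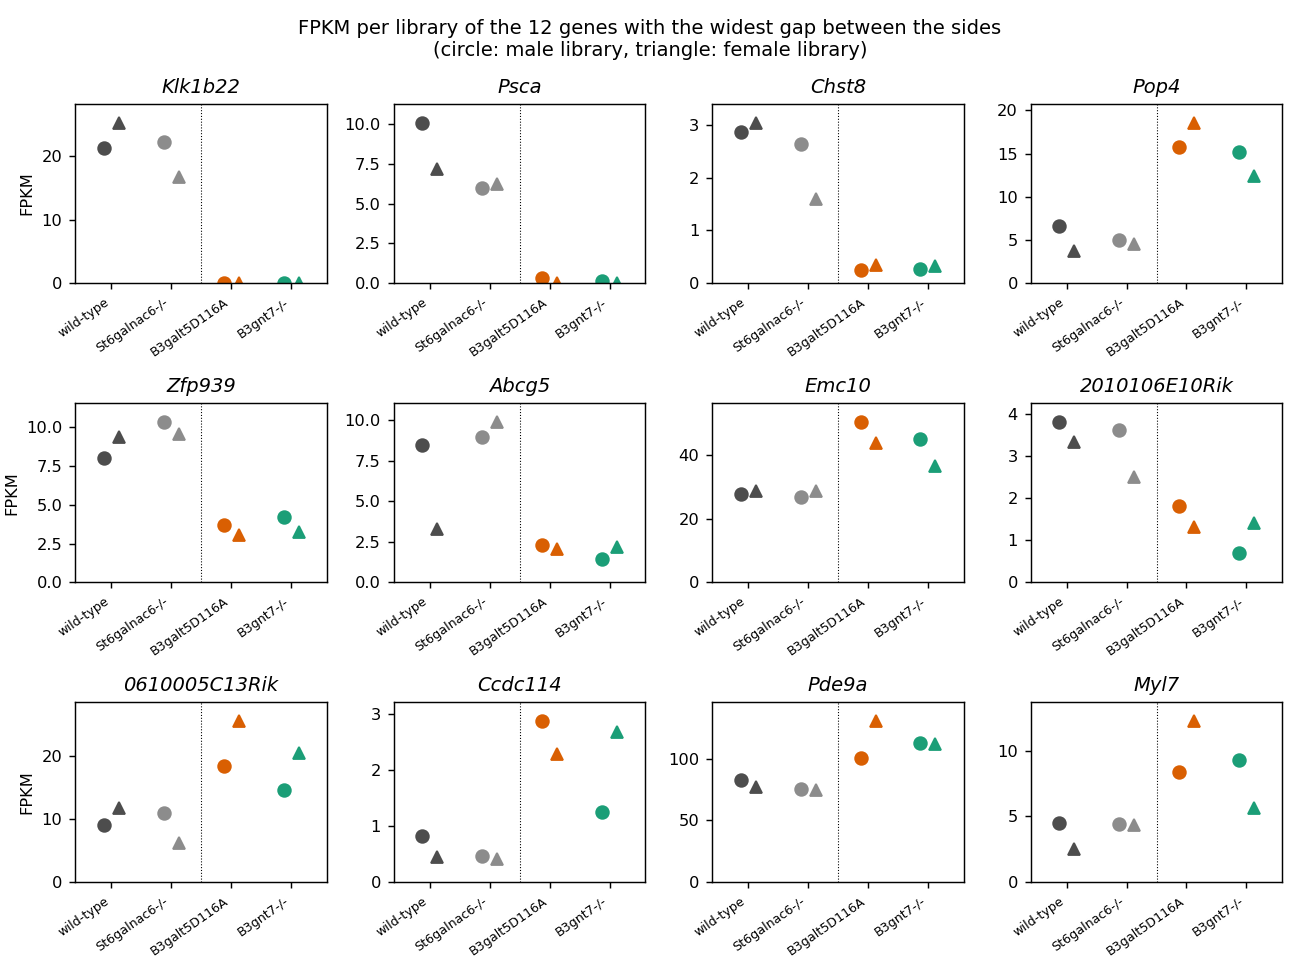
FPKM in each of the 8 libraries for the 12 genes with the widest gap, 1 panel per gene, with the genotypes on the x axis, circles for male and triangles for female libraries and no error bars. The dotted line parts the wild-type and St6galnac6-/- libraries from the B3galt5D116A and B3gnt7-/- libraries, whose Klk1b22 values all lie at 0, while for Abcg5 the wild-type female at 3.28 FPKM sits closest to the other side.

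Several of the genes with the widest gaps lay near each other. Of the 26 genes with a gap of at least 0.2, 9 lie on chromosome 7, all of them between Aplp1, which starts at 30434982, and Ccdc114, which ends at 45948963. That is 1.01% of the 895 tested genes of the chromosome, beside 0.225% of all tested genes. Within 15 Mb of the Klk1b22 start, a window centred on the gene with the widest gap and counting it, 15 of 191 tested genes were separated (7.85%, beside 3.19% of all), 9 higher and 6 lower, and the median log2 difference of the 191 was 0.01. Genes higher and lower in the B3 libraries thus lay side by side there, and most genes between them overlapped. Genes in both counts, such as Klk1b22, Chst8 and Ccdc114, averaged under 1 FPKM on 1 side (0, 0.296 and 0.530 FPKM). They passed the level threshold only through the side where they were high, so being tested and being separated are linked for them.

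Emc10 and Josd2, direct neighbours among the tested genes and 18.3 kb apart, were both higher. Emc10, a subunit of the complex that inserts membrane proteins into the endoplasmic reticulum, was at 27.9 and 28.7 FPKM (wild-type), 26.7 and 28.6 (St6galnac6-/-), 50.3 and 43.9 (B3galt5D116A) and 45.0 and 36.7 (B3gnt7-/-). The other 4 libraries lay close together, and the lowest B3 library was the B3gnt7-/- female. Josd2, a deubiquitinase, was at 9.67 to 13.1 FPKM in the other 4 libraries and 15.6 to 19.5 FPKM in the B3 libraries. The locus 0610005C13Rik was at 6.22 to 11.7 FPKM against 14.6 to 25.6 FPKM in the B3 libraries, and it overlaps Bcat2 on the opposite strand, a gene of branched-chain amino acid breakdown whose sides overlapped (22.2 to 29.8 FPKM against 26.1 to 35.2 FPKM). Ccdc114, a docking protein of ciliary dynein, was at 0.405 to 0.826 FPKM against 1.24 to 2.87 FPKM, and Aplp1, a relative of the amyloid precursor protein, at 3.39 to 5.47 FPKM against 6.69 to 8.35 FPKM.

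The other 6 separated genes of the same stretch, named after their values were seen, had smaller gaps and were Ankrd27, Nr1h2, Bcl2l12, Irf3, Ntn5 and Uevld. Nr1h2, an oxysterol receptor, was at 50.8 and 51.7 FPKM (wild-type), 47.3 and 47.2 (St6galnac6-/-), 44.0 and 44.4 (B3galt5D116A) and 44.5 and 44.8 (B3gnt7-/-). All B3 libraries were lower, by a log2 difference of -0.14. Ntn5, of the netrin family, was at 1.34 to 2.35 FPKM in the other 4 libraries, at 0.216 and 0.210 FPKM (B3galt5D116A) and at 1.26 and 0.685 FPKM (B3gnt7-/-).

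**Figure D3:**
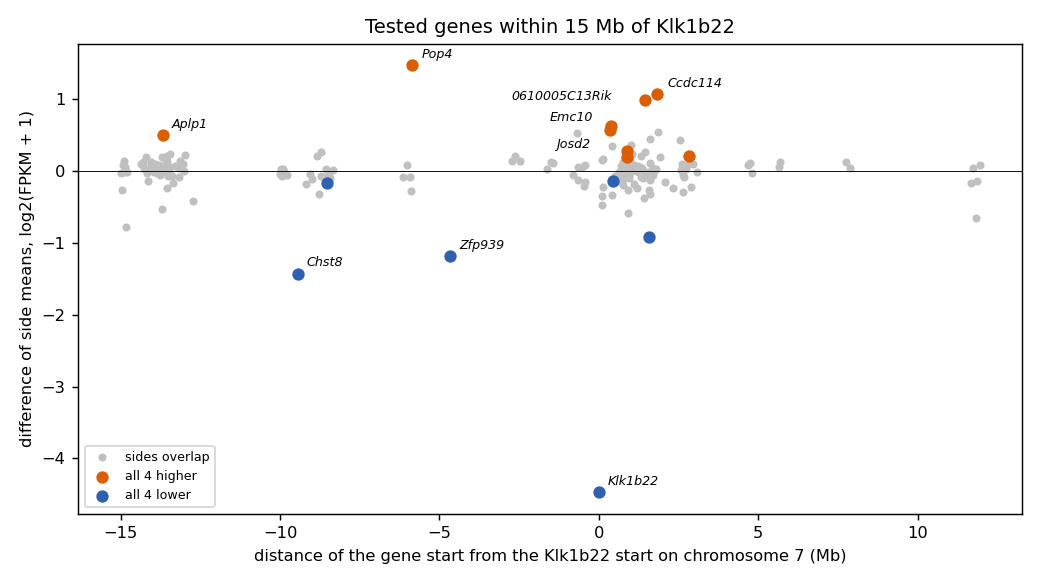
Difference of the side means on the log2(FPKM + 1) scale for the 191 tested genes within 15 Mb of Klk1b22 on chromosome 7, against the distance of their starts from the Klk1b22 start in Mb. Separated genes are coloured, 9 higher and 6 lower in the B3galt5D116A and B3gnt7-/- libraries, and the 9 with a gap of at least 0.2 are named.

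On chromosome 15, Psca, Them6 and Ly6d lie within 0.3 Mb of the Psca start, where 8 genes were tested, and all 3 were lower. The window was centred on Psca, 1 of the 5 genes with a gap of at least 0.5, and counts Psca itself. Separated genes made up 37.5% of its tested genes, beside 3.19% of all tested genes. Psca and Ly6d averaged 0.110 and 0.391 FPKM in the B3 libraries and passed the level threshold only through the other 4. Being tested and being separated are thus linked for them, and nothing is read from this share. Them6, of the thioesterase superfamily, was at 3.05 and 2.59 FPKM (wild-type), 2.64 and 2.13 (St6galnac6-/-), 1.27 and 0.8289 (B3galt5D116A) and 1.66 and 0.955 (B3gnt7-/-). Ly6d, another lipid-anchored surface protein, was at 1.27 and 1.40 FPKM (wild-type), 2.26 and 3.42 (St6galnac6-/-), 0.145 and 0.335 (B3galt5D116A) and 0.902 and 0.179 (B3gnt7-/-). The sides stayed apart for both genes, though the B3gnt7-/- male was nearest to the other side in each. The remaining tested genes there, Arc, Lynx1, 2010109I03Rik, Ly6e and Ly6a, overlapped, with Ly6e at 133 to 190.2 FPKM against 125 to 196 FPKM in the B3 libraries. Of 10 tested Ly6 family genes, Psca and Ly6d were the 2 separated ones. The fourth gene of chromosome 15 with a gap of at least 0.2 was Lifr, the receptor of leukaemia inhibitory factor, at 1.86 to 2.23 FPKM against 0.613 to 1.46 FPKM, and it starts far away at 7090614.

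Abcg5 and Abcg8, on chromosome 17, encode the half-transporters that together pump sterols out of enterocytes and hepatocytes. Abcg5 was at 8.47 and 3.28 FPKM (wild-type), 8.98 and 9.88 (St6galnac6-/-), 2.28 and 2.07 (B3galt5D116A) and 1.46 and 2.17 (B3gnt7-/-). Abcg8 was at 2.92 and 1.57 FPKM (wild-type), 2.67 and 2.77 (St6galnac6-/-), 0.900 and 0.580 (B3galt5D116A) and 0.754 and 1.29 (B3gnt7-/-). The wild-type female was the lowest of the other 4 libraries for both genes. Their RefSeq starts point away from each other with 109 bases between them, shown here because both genes were lower together (chr17:84683012-84683120, GRCm38.p6, minus strand, so that Abcg5 follows the right end). Capitals mark the motif TATAAA.
Abcg5 to Abcg8: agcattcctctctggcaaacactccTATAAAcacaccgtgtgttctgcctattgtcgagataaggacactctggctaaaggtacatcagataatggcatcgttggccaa
GENCODE M21 gives the 2 genes overlapping spans on opposite strands, so reads from the shared part cannot be told apart without strand. Of 25 tested genes of cholesterol synthesis and uptake 0 were separated, 6 had a positive and 19 a negative log2 difference, and their median was -0.09, beside -0.0041 over all tested genes.

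Over all separated genes, 16 pairs were direct neighbours among the tested genes, 11 with the same direction and 5 with opposite directions. Of the 736 direct neighbours of separated genes, 32 were themselves separated (4.35%), beside 3.19% of all tested genes. Abcg5 with Abcg8, Psca with Them6, Josd2 with Emc10 and Pop4 with Zfp939 were among them, and Pop4 and Zfp939 differed in opposite directions across 1178 kb. Slc24a3, a cation exchanger, and Rin2, a regulator of the small GTPase Rab5, were lower as neighbours on chromosome 2, and Car9, a carbonic anhydrase, and Tpm2, a tropomyosin, were higher as neighbours on chromosome 4. These last 4 genes were picked as examples after their values were seen. Another tested gene overlapped 63 of the 368 (17.1%), on one strand or the other, beside 20.3% of all tested genes with a position.

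Counted without regard to size, the separated genes spread over the chromosomes. Their share ran from 1.79% of the tested genes of chromosome 12 to 4.48% of those of chromosome 19, with 3.91% (35 of 895) on chromosome 7 and 0 of 4 on the Y chromosome. Of 202 bins of 10 Mb with at least 20 tested genes, 56 held none. The highest share was 8 of 47 (17.02%) on chromosome 19 from 30 to 40 Mb, followed by 3 of 20 each on chromosome 10 from 30 to 40 Mb and chromosome 2 from 50 to 60 Mb. In the chromosome 19 bin 4 genes were higher, the interferon-induced Ifit3, Fra10ac1, Slc16a12 and Cstf2t, and 4 lower, the plasma membrane repair protein Myof, the mitochondrial ubiquitin ligase March5, Ankrd22 and Tbc1d12. Ifit3 had the widest gap of these at 0.24. The chromosome 10 bin held Nt5dc1, Gm20300 and Tspyl1, and the chromosome 2 bin held Wdsub1, Rbm43 and Tanc1, all with gaps of 0.06 or less. The chromosome 7 bin from 40 to 50 Mb held 10 of 101 (9.90%), and 5 of these had a gap of at least 0.2.

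**Figure D4:**
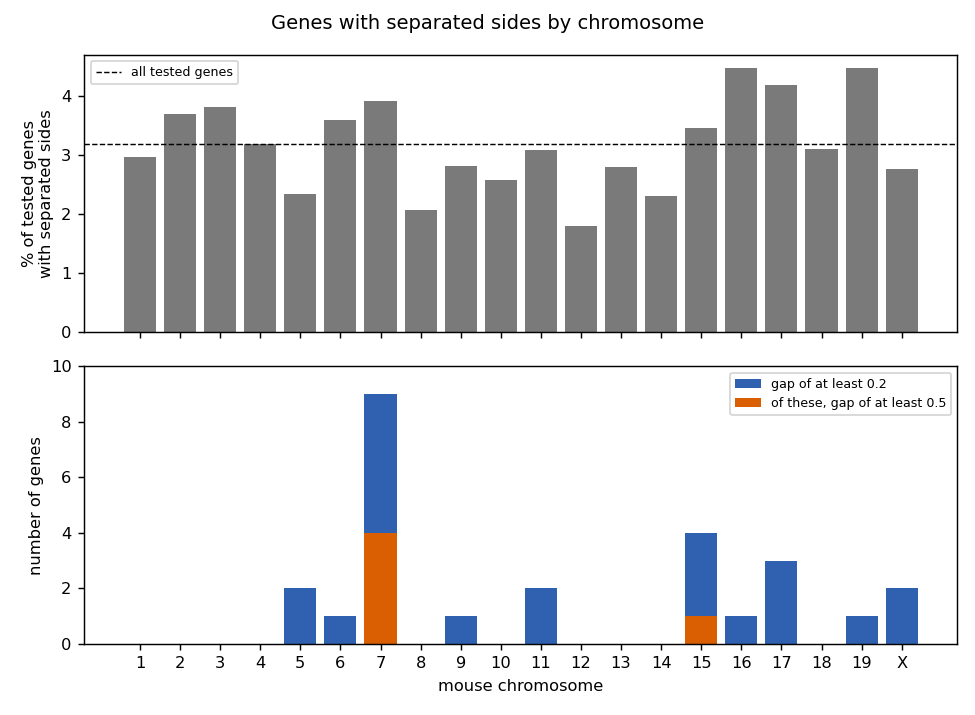
Top, percent of the tested genes of each chromosome that were separated, with the dashed line at 3.19% for all tested genes. Bottom, number of separated genes with a gap of at least 0.2 (blue) and of at least 0.5 (orange) on the log2(FPKM + 1) scale, highest on chromosome 7 with 9 and 4. The Y chromosome, with 4 tested genes, is left out.

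Around the targeted genes separated genes had small gaps. Within 5 Mb of St6galnac6 (chromosome 2 from 32599709 to 32620806), 5 of 108 tested genes were separated (4.63%, beside 3.19% of all tested genes). They were the volume-regulated channel subunit Lrrc8a, the mitochondrial outer membrane protein Fam73b, the carnitine acetyltransferase Crat, Asb6 and the transcription kinase Cdk9, with gaps of 0.03 to 0.11. Within 5 Mb of B3galt5 (chromosome 16 from 96235801 to 96319859) Fam3b was the 1 of 48 (2.08%), and within 5 Mb of B3gnt7 (chromosome 1 from 86302832 to 86307305) Sh3bp4, with a gap of 0.07, was the 1 of 47 (2.13%). Fam3b, a secreted cytokine-like protein, had the smallest gap of all higher genes, 0.00017, with the wild-type male at 129.1 FPKM and the B3gnt7-/- female at 129.2 FPKM. Next to it among the higher genes was Rap2c with 0.0005, while Elp2 and Cmtm7 fell just outside. Among the lower genes D17Wsu92e was just inside, with a gap of 8.61e-05, and Slc3a2 and Rras just outside. On the level threshold, 4933406C10Rik with a mean of 1.001 FPKM and Ccdc62 with 1.03 FPKM were kept, and Mtcl1 with 0.999 FPKM and Hnmt with 0.986 FPKM were left out although their sides did not overlap.

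The remaining lower genes with the widest gaps serve varied functions. The X-linked locus 2010106E10Rik was at 2.52 to 3.82 FPKM in the other 4 libraries and at 0.697 to 1.82 FPKM in the B3 libraries, and the X-linked Bex2 was at 3.503 to 6.07 FPKM against 2.13 to 2.81 FPKM. Parp3, an ADP-ribosyltransferase of DNA repair, was at 7.63 to 8.87 FPKM against 4.42 to 6.23 FPKM. Osgin2 and Tm6sf2, a membrane protein linked in humans to liver lipid content, were also among the 15 lower genes with the widest gaps. Tm6sf2 was at 15.3 and 16.1 FPKM (wild-type), 12.3 and 12.5 (St6galnac6-/-), 10.8 and 10.1 (B3galt5D116A) and 8.81 and 9.23 (B3gnt7-/-), so that the genotypes were also apart within each side.

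Among the higher genes, Pde9a, which breaks down cyclic GMP, was at 83.1 and 77.3 FPKM (wild-type), 75.9 and 75.1 (St6galnac6-/-), 101 and 131 (B3galt5D116A) and 113 and 112 (B3gnt7-/-). It was the most abundant of the 15 higher genes with the widest gaps. Apobec1, the cytidine deaminase that edits apolipoprotein B transcripts, was at 18.1 and 17.9 FPKM (wild-type), 11.8 and 15.7 (St6galnac6-/-), 21.6 and 22.6 (B3galt5D116A) and 29.9 and 27.1 (B3gnt7-/-). Ermp1, a peptidase of the endoplasmic reticulum, was at 23.2 to 25.3 FPKM against 29.0 to 34.1 FPKM in the B3 libraries. Myl7, the atrial myosin light chain, was at 2.53 to 4.52 FPKM against 5.65 to 12.3 FPKM, and Fzd9, a Wnt receptor, at 0.478 to 0.771 FPKM against 1.08 to 2.80 FPKM. The loci 2610015P09Rik (2.73 to 3.25 FPKM against 4.10 to 4.41 FPKM) and 6330418K02Rik (1.42 to 1.72 FPKM against 2.24 to 2.87 FPKM) complete this group with Ifit3 and Cd68, which follow with their lists.

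**Figure D5:**
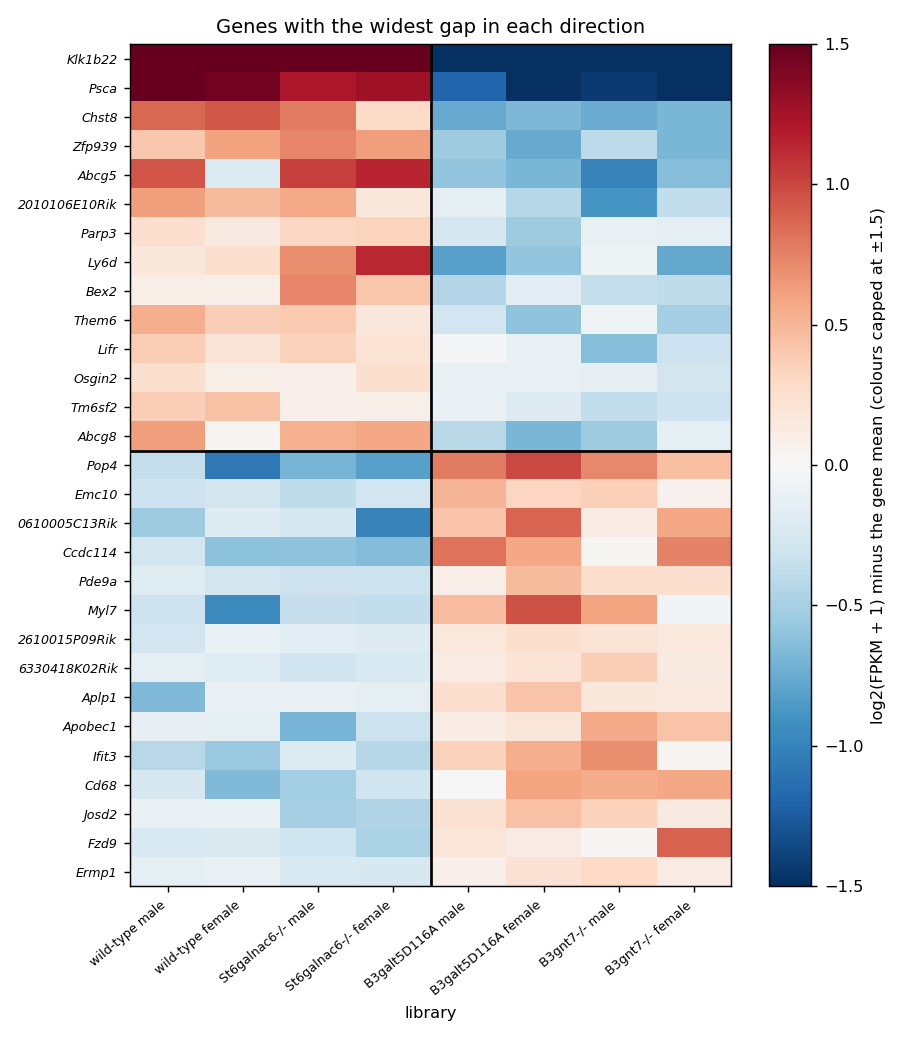
Log2(FPKM + 1) minus the gene's mean over the 8 libraries for 14 lower (top) and 15 higher (bottom) genes with the widest gaps, 1 column per library, with colours capped at 1.5 in either direction. The vertical line parts the sides, and the genes were chosen because the sides do not overlap. The wild-type female column is the palest of the left side for Abcg5 and Abcg8.

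Of 38 gene lists, 36 had a tested member, 17 of these held at least 1 separated gene and 19 held none. Read beside the 3.19% of all tested genes, most list counts are 0 to 2 genes, and nothing particular to a list is read from them. Of 28 tested interferon response genes 2 were higher and 0 lower, with a median log2 difference of 0.19 and a positive difference in 23. Ifit3 was at 0.517 and 0.382 FPKM (wild-type), 0.757 and 0.508 (St6galnac6-/-), 1.58 and 1.96 (B3galt5D116A) and 2.29 and 1.07 (B3gnt7-/-). Xaf1, an interferon-induced partner of an apoptosis inhibitor, was at 1.33 to 1.60 FPKM against 1.90 to 2.92 FPKM. Of 21 MHC class I genes 2 were lower, the nonclassical H2-Q6 (2.44 to 2.91 FPKM against 1.46 to 2.17 FPKM) and H2-Q4 (28.0 to 30.3 FPKM against 21.6 to 27.6 FPKM), which have close paralogs. The 6 MHC class II genes tested had 0 separated and a median of -0.35, and their levels did not follow the sides. The 11 listed class II genes summed to 21.6 and 16.7 FPKM (wild-type), 72.4 and 80.6 (St6galnac6-/-), 15.6 and 14.4 (B3galt5D116A) and 72.7 and 32.2 (B3gnt7-/-).

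Of the enzymes that extend and cap glycan chains, 1 of 24 was separated, B4galnt4, which adds N-acetylgalactosamine to N-acetylglucosamine, at 0.710 to 1.33 FPKM against 1.49 to 2.32 FPKM in the B3 libraries. Of 17 enzymes that start O-glycans or build their cores, 1 was higher, Galnt12, at 47.3 to 54.1 FPKM against 54.7 to 62.1 FPKM. In this list 14 differences were positive and 3 negative, with a median of 0.08. The list summed to 411 to 445 FPKM in the other 4 libraries and 470 to 493 FPKM in the B3 libraries. It is 1 of 38 lists looked at, and no list was tested. Galnt12 was also the 1 separated gene of 23 goblet cell and mucus genes, whose median was 0.13. Of 14 genes of sialic acid transfer and supply 0 were separated (median 0.04), and of 4 membrane mucins 0 (median 0.06).

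Of 33 absorptive colonocyte genes 1 was higher and 1 lower, and the list median was -0.003. The higher one was the sodium-proton exchanger Slc9a3, at 44.5 to 59.7 FPKM against 60.3 to 75.9 FPKM in the B3 libraries. The hyaluronan receptor Cd44 was the 1 higher gene of 13 stem cell and Wnt target genes, at 9.67 and 12.2 FPKM (wild-type), 13.6 and 13.9 (St6galnac6-/-), 16.2 and 17.9 (B3galt5D116A) and 15.8 and 16.3 (B3gnt7-/-). Clock, the activator of the circadian loop, was the 1 lower gene of 17 clock genes, whose median was -0.17. Its gap was 0.02, at 16.1 to 18.3 FPKM against 12.7 to 15.9 FPKM in the B3 libraries. Dnajc3, a chaperone of the endoplasmic reticulum, was the 1 higher gene of 26 folding genes (median 0.07). Its gap was also 0.02, at 22.6 to 23.4 FPKM against 23.8 to 27.5 FPKM. The carboxylesterase Ces1f was the 1 higher gene of 39 xenobiotic metabolism genes (median 0.17). Gsdmc4, of the pore-forming gasdermins and with close paralogs, was at 374 to 506 FPKM against 540.5 to 799 FPKM and was the 1 of 19 sensor and inflammasome genes.

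Lists without a separated gene could still have mostly positive or negative differences, without the levels following the sides. The 30 proliferation genes all had a positive difference, with a median of 0.22, and 0 were separated. Their sums were 491 and 502 FPKM (wild-type), 557 and 928 (St6galnac6-/-), 727 and 855 (B3galt5D116A) and 778 and 492 (B3gnt7-/-), so that the highest library lay on one side and a library near the lowest on the other. Of 14 enteroendocrine genes 13 were positive (median 0.37), of 27 histone genes 25 (median 0.13), and of 29 immediate early genes 25 were negative (median -0.26). The sum of the immediate early list was high in wild-type alone, at 8829 and 7552 FPKM, with St6galnac6-/- at 5617 and 5154 FPKM and the B3 libraries at 5229 to 6209 FPKM. Of 17 tight junction genes 15 were negative (median -0.09), and their sum was likewise highest in wild-type (2594 and 2290.2 FPKM, against 1856 to 2099.7 FPKM in the other 6 libraries). The antimicrobial (median 0.09), tuft cell (0.10), heat shock (-0.07), colon epithelial (-0.0084), Hox and Cdx (0.03), ribosomal protein (0.0058), oxidative phosphorylation (-0.02) and small RNA (-0.0014) lists also held 0. Of 623 predicted and unnamed loci 16 were higher and 7 lower (3.69%).

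Cd68, a lysosomal glycoprotein abundant in macrophages, was the 1 separated gene of 6 tested myeloid markers, at 1.58 and 0.939 FPKM (wild-type), 1.14 and 1.49 (St6galnac6-/-), 2.04 and 3.62 (B3galt5D116A) and 3.49 and 3.57 (B3gnt7-/-). All 6 had a positive difference (median 0.10). The 17 myeloid markers listed summed to 28.5 to 35.6 FPKM in the other 4 libraries and 29.1 to 40.3 FPKM in the B3 libraries. Of these sums, Cd14 alone made up 19.1 to 27.5 FPKM. The macrophage markers Csf1r and Adgre1 were at or under 0.191 and 0.0865 FPKM in all libraries. C1qa, also a macrophage marker, was at 0.334 to 0.690 FPKM in the other 4 libraries. It was at 0.485 and 3.45 FPKM (B3galt5D116A) and at 1.84 and 0.897 FPKM (B3gnt7-/-), and its sides overlapped. T cell and intraepithelial lymphocyte markers were positive in 8 of 8 (median 0.20, 0 separated), and summed to 22.9 to 31.2 FPKM against 16.9 to 46.5 FPKM. The B3galt5D116A male was the lowest of all libraries for these, and the other 3 B3 libraries the highest. Stromal markers were positive in 5 of 6 (median 0.30, 0 separated), with the B3gnt7-/- female far above the rest. Dcn, a matrix proteoglycan, was at 18.9 FPKM there and at 2.101 to 3.35 FPKM in the other 7 libraries, and the other 3 B3 libraries summed to 14.4 to 18.4 FPKM over the list, beside 16.3 to 19.0 FPKM on the other side. B and plasma cell markers (sums up to 1.22 FPKM) and enteric glia and neuron markers (up to 1.96 FPKM) had 0 tested members. The part of such cells in the values of Cd68, Ifit3 or other separated genes was not tested.

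Genotypes within a side and the sexes were also compared. The rule used these values too, since separated sides need a small spread among the 4 libraries of a side, so low counts follow from the choice of genes and nothing is read from them. In limma, fitted over all 11537 genes with genotype and sex, 0 of the 368 separated genes passed an adjusted p of 0.05 for St6galnac6-/- against wild-type, where 10 of all genes passed (0.0867%). At an unadjusted p under 0.05 there were 18 separated genes (4.89%), beside 9.04% of all tested genes. Trp53bp2, a partner of p53, had the smallest p, with 33.5 and 30.0 FPKM (wild-type), 19.6 and 19.7 FPKM (St6galnac6-/-) and 16.8 to 18.8 FPKM in the B3 libraries (log2 difference -0.66, SE 0.11, limma adjusted p = 0.129).

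For B3gnt7-/- against B3galt5D116A, limma also called 0 of the 368, beside 1 of all genes (0.00867%), with 3 separated genes at an unadjusted p under 0.05 (0.815%, beside 4.20% of all). Ntn5 had the smallest p (log2 difference 0.69, SE 0.22, limma adjusted p = 0.770). Between females and males limma called 0 of the 368, beside 6 of all genes (0.052%), with 3 at an unadjusted p under 0.05, and Utp14b, a ribosome assembly factor, had the smallest p (log2 difference -0.34 for female minus male, SE 0.12, limma adjusted p = 0.9998). With 2 libraries per genotype, and with no statement that libraries came from separate animals, these p-values cover the spread among these libraries alone.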

How the data were processed

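The authors deposited 1 table of FPKM values per library, per the file headers, for 24346 gene symbols. Build mm10, Cuffdiff 2.2.1, and also TopHat2 2.1.1, SAMtools 0.1.18 and Bowtie2 2.2.8 stand in the submitters' processing notes. Parameters, annotation and scaling between libraries are not given in the sources used here. Per the labels' protocols, libraries were made with a stranded mRNA kit.

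Values were taken as log2(FPKM + 1), a pseudocount of 1 FPKM that understates changes of low genes, for genes that averaged 1 FPKM or more. Some separated genes, such as Klk1b22, Psca, Chst8, Ly6d, Ccdc114, Ifit3 and Fzd9, reached that average only through the side where they were high. Shares of separated among tested genes include them. The gap is the distance between the nearest libraries of the sides. Comparisons within sides used limma 3.58.1 (R 4.3.3, trend=TRUE, 3 residual and 4.02 prior degrees of freedom, Benjamini-Hochberg over all tested genes), with genotype and sex as terms, and were tested on simulated data, where false calls were more frequent than the nominal share, so the limma counts over all genes may be too high. Depth in reads is unknown, so no counting interval is given. Positions came from GENCODE M21 by symbol, then from RefSeq, for 11511 tested genes (99.8%) and all 368 separated ones.

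Named genes are the targeted genes, the 15 per direction with the widest gap, up to 4 separated genes per list, those nearest the thresholds, those in the 3 densest bins of 10 Mb or with a gap of at least 1, those within 5 Mb of a targeted gene, and their paralogs. A few genes that this rule names are not reported here. Members, lists and rules were chosen with earlier results of these data known. Alternatives changed pseudocount, filter, scaling, gap, sex term and libraries.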

Additional observations from a re-analysis of the deposited data

Results flagged for a closer look

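In 125 groups of 4 libraries (1 side, 1 named gene), 9 held a library far from its other 3, with a distance to the nearest library, as a share of the group's range on the log2(FPKM + 1) scale, above the 95% critical value of Dixon's test. Chance alone gives about 1 in 20. Among the wild-type and St6galnac6-/- libraries, the wild-type female stood apart for Abcg5 (0.851 of the range, at 3.28 FPKM), Abcg8 (0.841, at 1.57 FPKM) and Myl7 (0.911, at 2.53 FPKM). The wild-type male stood apart for Aplp1 (0.920, at 3.39 FPKM) and Ccdc114 (0.872, at 0.826 FPKM). The St6galnac6-/- female stood apart for Ces1f (0.913, at 47.7 FPKM) and the St6galnac6-/- male for Tanc1 (0.834, at 5.36 FPKM). Among the B3galt5D116A and B3gnt7-/- libraries, the B3galt5D116A male stood apart for Cd68 (0.931, at 2.04 FPKM) and the B3gnt7-/- female for Osgin2 (0.875, at 3.05 FPKM).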

How the results depend on the processing

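The counts of 141 higher and 227 lower separated genes became 87 and 175 with a mean of at least 5 FPKM, 212 and 276 with no filter, 161 and 245 with quantile normalization (102 and 170 kept) and 1 and 4 with a gap of at least 0.5. Leaving out 1 library makes it easier for the sides not to overlap, since 4 values are then set against 3. The counts ran from 214 to 685 higher and from 309 to 913 lower. Higher and lower genes were 214 and 309 without the wild-type male, 285 and 428 without the wild-type female, 281 and 375 without the St6galnac6-/- male and 380 and 499 without the St6galnac6-/- female. They were 247 and 365 without the B3galt5D116A male, 246 and 326 without the B3galt5D116A female, 217 and 314 without the B3gnt7-/- male and 685 and 913 without the B3gnt7-/- female. Limma called 0 separated genes in each of the 3 comparisons under every alternative run: pseudocounts of 0.1 and 5, no filter, quantile normalization, each library left out, and no sex term, which acts as the replicate block here and gave 0 as well. Same-sex libraries share no other replicate number in the labels, so no pairing was used beyond the sex term. Of 780 log2 differences of 65 named genes under alternatives, 40 moved by more than 1 SD, all under another pseudocount. Among those of separated genes 0 changed sign. Sign changes of the targeted genes, which were not separated, were not counted. Chromosome counts stayed within 1.5 times in 36 of 42 cases and list counts in 56 of 72. Unknown read depth limits genes near 1 FPKM most.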
